A study of Mus musculus with 6 samples.

Results

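Cholesterol synthesis was examined through 7 genes: Hmgcs1, Idi1, Fdft1, Sqle and Dhcr7, which encode enzymes of the pathway, and Srebf2 and Insig1, which encode its transcription factor and a sensor that restrains it. They were chosen by name from the 55471 genes of the count tables, and all 7 passed the expression filter of the test, as did 17127 genes in all. The tissue was the rostral-most telencephalic primordium, the part of the early forebrain where the olfactory bulb will form, dissected from mouse embryos at E11.5 (embryonic day, counted from the plug). Control embryos (3 libraries) carried floxed Dicer alleles without Cre (Dicer F/F), although the genotype field calls them WT. Rx-Dicer embryos (3 libraries) carried the same floxed alleles with RxCre, a Cre recombinase driven by the Rx gene, which is active in the early anterior neural plate and eye field. Dicer makes mature miRNAs from their hairpin precursors, so the comparison asks which transcripts differ when Dicer is removed from these cells. Cre mice were kept on a CD1 background and floxed mice on C57BL/6. The labels number the libraries as replicates, and the paper describes its replicates as biological and independent. The p-values below measure the spread between these libraries, which may be partly technical.

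Cells build cholesterol from acetyl-CoA by way of mevalonate, farnesyl diphosphate, squalene and lanosterol. When membrane sterol falls, SCAP carries the SREBP precursors from the endoplasmic reticulum to the Golgi, the proteases encoded by Mbtps1 and Mbtps2 release the active factor, and SREBP-2 raises nearly every enzyme of the route. When sterol is plentiful, INSIG proteins hold SCAP back, while LXR receptors raise the exporter ABCA1 and the carrier APOE. Once its barrier to the blood has formed, the brain depends largely on its own synthesis, because little cholesterol then crosses. DHCR7, which makes the last step of one branch, is the enzyme lost in Smith-Lemli-Opitz syndrome. An intron of Srebf2 also holds miR-33, a Dicer product known to repress Abca1.

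None of the 7 genes was called different between Rx-Dicer and control. A gene was called when DESeq2's adjusted p was below 0.05 and the change exceeded 25% (the higher group over the lower), and 2.93% of all genes tested met this rule. All 7 estimates lay slightly below 0, from -0.01 for Insig1 to -0.20 for Fdft1 on the log2 scale, with a median of -0.13. Of all genes tested, 50.1% had an estimate below 0, and the median change of all genes was 0.00. No member had an unadjusted DESeq2 p below 0.05, which 13.1% of genes had, and 1 had an unadjusted edgeR p below it. edgeR's quasi-likelihood test called no member and 0.0446% of all genes. No member was called under any of the 18 alternative settings. Leaving out control 2 or Rx-Dicer 1 left 5 of the 7 estimates below 0.

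The libraries held 34471501 to 48373468 counts on genes, and each member had at least 1610 counts in every library. Reads on no annotated feature made up 13.2% in Rx-Dicer 2, against 8.15% to 10.5% in the other libraries. The part of this difference in the values of Rx-Dicer 2 was not tested. Dicer1 itself had 6355, 7070 and 6270 normalised counts in controls 1 to 3 and 4777, 7002 and 4644 in Rx-Dicer 1 to 3 (log2 change -0.26 ± 0.17 SE, adjusted p = 0.57 by DESeq2). A count over the whole gene does not measure the deleted part alone, so it checks the genotype poorly, and Rx-Dicer 2 lay at the control level. Without Rx-Dicer 2 Dicer1 was called lower (log2 change -0.47, DESeq2 adjusted p = 0.00088), and over all alternatives its log2 change ranged from -0.47 to -0.16. The tissue markers Sox2 and Nes were high in all 6 libraries. Summed markers of neurons, red cells and mesenchyme overlapped between the groups. Endothelial markers summed to 6006, 6175 and 6128 normalised counts in controls 1 to 3. In Rx-Dicer 1 to 3 they summed to 7567, 8163 and 3491, on both sides of the controls. Those of neuroepithelium overlapped narrowly, at 171370 to 194681 normalised counts in controls and 161384 to 174105 in Rx-Dicer. That sum includes Vim, which was higher in every Rx-Dicer library (65193 to 73504) than in controls (57036 to 64997). Of the 9 neuroepithelial markers, 6 had an estimate below 0 and 3 above. DESeq2 called Pax6 and Fabp7 lower, and Nes had a log2 change of -0.37 ± 0.17 (DESeq2 adjusted p = 0.29). The 6 macrophage markers summed to 1001 to 1150 normalised counts in controls and 1125 to 3748 in Rx-Dicer. The 7 hypothalamic and eye markers summed to 1553 to 1899 against 2696 to 3405, and 3 of them were called higher.

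The 7 genes lie on 5 chromosomes of GRCm38, and all are protein coding. Hmgcs1 (chr13:119690379-119708260, plus strand) and Idi1 (chr13:8885501-8892451, plus) share chromosome 13. Sqle (chr15:59315077-59331192, plus) and Srebf2 (chr15:82147181-82205379, plus) share chromosome 15. Fdft1 spans chr14:63145150-63179578 on the minus strand, Insig1 chr5:28071363-28078662 on the plus strand and Dhcr7 chr7:143823145-143848410 on the plus strand. Per length, given as CPM (counts scaled to the library's total) per kilobase of annotated exon, Hmgcs1 had by far the highest level in controls, 98.1 ± 4.84 (SD, n = 3). Srebf2 followed with 46.2 ± 4.64, then Insig1 with 27.8 ± 1.251, Sqle with 27.4 ± 0.784 and Fdft1 with 25.7 ± 1.01. Idi1, at 14.7 ± 1.54, and Dhcr7, at 11.6 ± 0.530, were lowest. Insig1 and Sqle did not differ beyond their SD, and the other neighbours in this order lay further apart. The order was the same in Rx-Dicer, from 89.8 ± 20.6 for Hmgcs1 to 10.8 ± 1.33 for Dhcr7.

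Hmgcs1 encodes the synthase that makes HMG-CoA from acetoacetyl-CoA and acetyl-CoA. Its normalised counts were 20000, 18711 and 18647 in controls 1 to 3 and 14007, 21148 and 16618 in Rx-Dicer 1 to 3. Rx-Dicer 2 was the highest of the 6 libraries and Rx-Dicer 1 the lowest, so the groups overlapped. DESeq2 gave a log2 change of -0.15 ± 0.15 (SE, adjusted p = 0.82 by DESeq2, 0.75 by edgeR), with a 95% interval from -0.45 to 0.16. Without Rx-Dicer 1 the value was -0.02 and without Rx-Dicer 2 it was -0.32 (DESeq2 adjusted p = 0.97 and 0.13). The spread was much wider in Rx-Dicer, where the SD was 20.9% of the mean against 3.99% in controls. Across genes with at least 1000 normalised counts, the median of this ratio was 8.68% in Rx-Dicer and 7.10% in controls. No test compared the spreads.

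Idi1 encodes the isomerase that supplies the isoprenoid building block. It had 1967, 2488 and 2131 normalised counts in controls and 1749, 2461 and 2168 in Rx-Dicer. Rx-Dicer 2 was close to the highest control and Rx-Dicer 1 below the lowest. The log2 change of -0.05 ± 0.16 had an interval from -0.36 to 0.27 (DESeq2 adjusted p = 0.97), and its sign turned without control 2 or without Rx-Dicer 1.

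Fdft1 encodes squalene synthase, the first enzyme committed to sterols. It had 4780, 4674 and 4407 normalised counts in controls and 3805, 4179 and 4114 in Rx-Dicer. Of the 7 genes, this was the only one whose groups did not overlap, and 10.7% of all genes tested had Rx-Dicer values wholly below the control values. Its log2 change was -0.20 ± 0.11, with an interval from -0.41 to 0.02. It did not pass the test (DESeq2 adjusted p = 0.45, edgeR 0.36), and the change stayed between -0.23 and -0.16 over the alternatives.

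Sqle encodes squalene epoxidase, a second control point of the pathway. The controls lay close together, at 6577, 6398 and 6397 normalised counts, against 5334, 6425 and 5994 in Rx-Dicer. Rx-Dicer 2 fell within the control range and the other two below it. This amounted to a log2 change of -0.13 ± 0.12 (interval -0.35 to 0.10, DESeq2 adjusted p = 0.77).

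Dhcr7 had 2713, 3061 and 2821 normalised counts in controls and 2422, 2926 and 2548 in Rx-Dicer. Again Rx-Dicer 2 lay inside the control range and the other two below it. The log2 change was -0.12 ± 0.13 (interval -0.37 to 0.13, DESeq2 adjusted p = 0.81).

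Insig1 is itself an SREBP target and closes the feedback loop. It had 3441, 3870 and 3646 normalised counts in controls and 3071, 4324 and 3483 in Rx-Dicer, so Rx-Dicer held both the highest and the lowest library. Its log2 change was -0.01 ± 0.15 (interval -0.30 to 0.28, DESeq2 adjusted p = 0.99). Its sign turned with total count scaling and without control 2, Rx-Dicer 1 or Rx-Dicer 3.

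Srebf2 had 12340, 15218 and 14700 normalised counts in controls and 12487, 13676 and 11795 in Rx-Dicer. Control 1 lay between the Rx-Dicer libraries. The log2 change was -0.15 ± 0.13 (interval -0.40 to 0.09, DESeq2 adjusted p = 0.72). This is the level of the transcript, and the cleaved, active SREBP-2 protein was not measured.

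**Figure D1:**
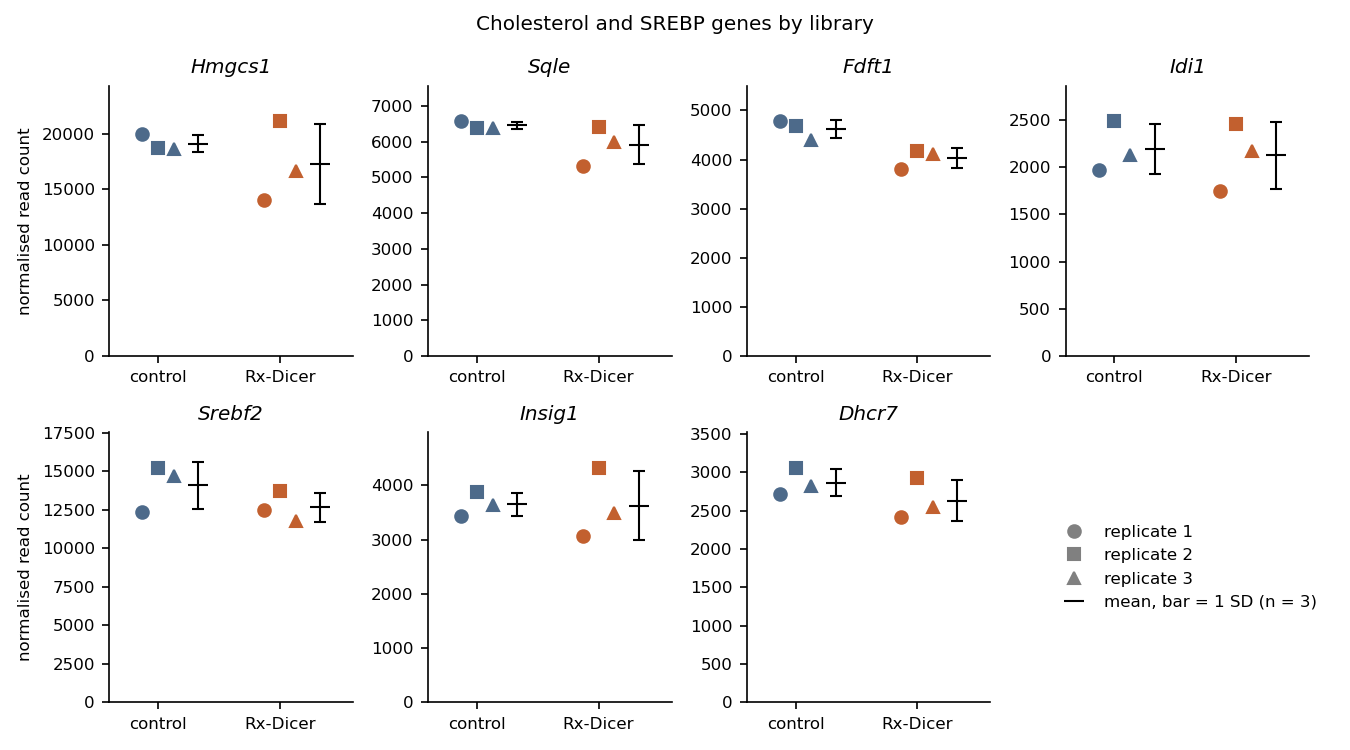
Normalised read count (linear axis from 0) of each of the 7 genes in the 3 control (blue) and 3 Rx-Dicer (orange) libraries, with the mean and 1 SD. Fdft1 alone has groups that do not overlap, and Rx-Dicer 1 is the lowest library in 6 of the panels.

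Summed over the 7 genes, the level was 1231, 1255 and 1259 CPM in controls and 1033, 1353 and 1073 CPM in Rx-Dicer. The controls were nearly level (SD 15.2 CPM), whereas Rx-Dicer spread on both sides of them (SD 174 CPM). The 2 sequencing runs of each library gave the same picture, as a member's scaled values in both runs differed by a median of 0.02 and at most 0.11 on the log2 scale.

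The other enzymes were then placed beside the 5 member enzymes. Of 21 enzymes from acetyl-CoA to cholesterol, 18 had an estimate below 0, none was called, and the median log2 change was -0.17. In 6 of the 21 all Rx-Dicer values were below all control values, against 10.7% of all genes tested. An unadjusted DESeq2 p below 0.05 was found for 4 of the 21, all in the lower direction, against 13.1% of all genes in either direction. These genes vary together between libraries and are not independent. Without Rx-Dicer 1, 16 of the 21 were below 0 and the median was -0.10, and over all alternatives the number below 0 ranged from 16 to 20. Summed, the 21 enzymes stood at 2265, 2357 and 2315 CPM in controls and 1887, 2416 and 1998 CPM in Rx-Dicer, so Rx-Dicer 2 exceeded every control. In bulk tissue, fewer cells of a type and less RNA per cell cannot be told apart.

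In the early route, up to squalene, all 9 enzymes were below 0. The lowest was Pmvk, phosphomevalonate kinase, with 1333, 1609 and 1601 normalised counts in controls and 1216, 1141 and 951.6 in Rx-Dicer (log2 change -0.46 ± 0.15, DESeq2 adjusted p = 0.067, edgeR 0.21). It was called without control 1, without Rx-Dicer 1, with the low count filter and at an adjusted p below 0.1. Mvk, mevalonate kinase and the preceding enzyme, had a log2 change of -0.39 ± 0.14 (DESeq2 adjusted p = 0.12). It was called lower without control 1 and without Rx-Dicer 2, and was named after its value was seen. Fdps, the synthase of farnesyl diphosphate, was counted at only 92.6 to 168 normalised counts, and its value is uncertain because reads from near-identical copies could have been split or set aside in counting.

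In the late route, from squalene to cholesterol, 9 of 12 enzymes were below 0. Tm7sf2, a sterol reductase, had the lowest estimate, with 730, 901 and 844 normalised counts in controls and 610, 717 and 538 in Rx-Dicer (log2 change -0.41 ± 0.16, DESeq2 adjusted p = 0.18). Without Rx-Dicer 2 it was called lower (-0.52, DESeq2 adjusted p = 0.039). Hsd17b7, which encodes a ketoreductase, had the highest, 0.16 ± 0.18 (adjusted p = 0.85), and ranged from 752 in Rx-Dicer 1 to 1200 in Rx-Dicer 2. Lss, the cyclase that makes lanosterol, had 2565, 3143 and 3063 normalised counts in controls and 2238, 3192 and 2274 in Rx-Dicer (log2 change -0.19 ± 0.17, DESeq2 adjusted p = 0.76).

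Of the 7 genes of the SREBP machinery, which include Srebf2 and Insig1, none was called. Srebf1, the factor weighted to fatty acid genes, had 3431, 4266 and 3824 normalised counts in controls and 3102, 3391 and 3006 in Rx-Dicer, all below the controls (log2 change -0.28 ± 0.13, DESeq2 adjusted p = 0.29). Mbtps2, the intramembrane protease, was the highest of the list at 0.23 ± 0.14 (adjusted p = 0.50), with Rx-Dicer values wholly above the controls, as in 8.55% of all genes tested. With GC and length correction the value was 0.04. Scap had a log2 change of -0.13 ± 0.14 (DESeq2 adjusted p = 0.83) and Insig2 one of 0.10 ± 0.14 (adjusted p = 0.89). Npc2, which takes part in the export of cholesterol from lysosomes, was lowest of the uptake list at -0.22 ± 0.12 (DESeq2 adjusted p = 0.44).

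**Figure D2:**
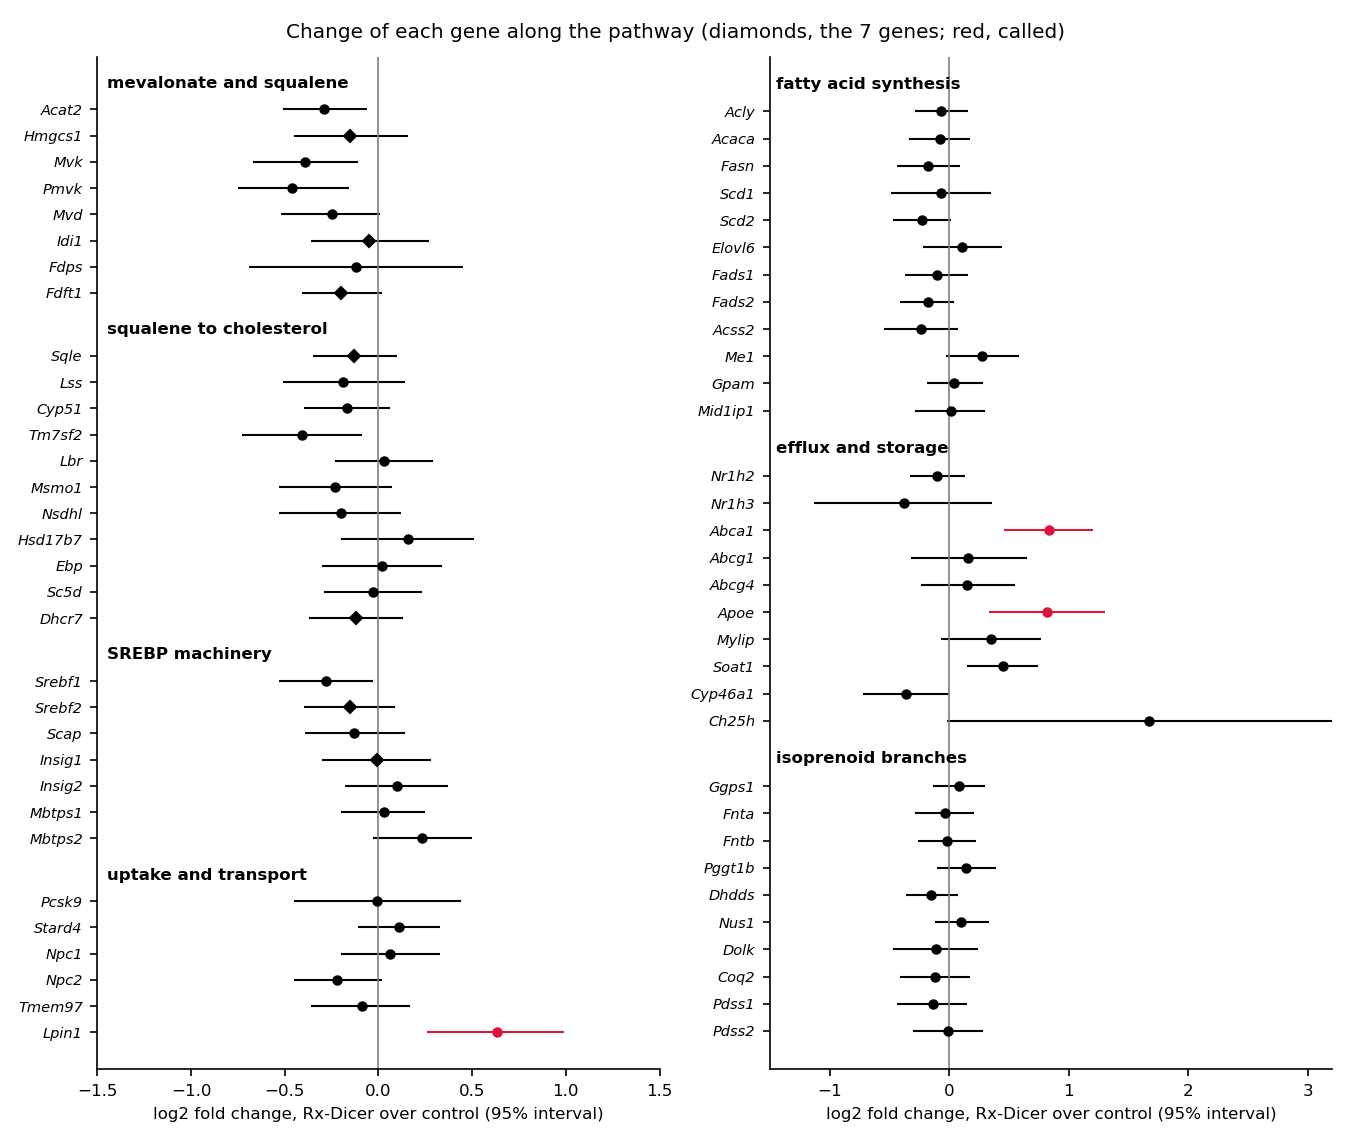
Log2 fold change of Rx-Dicer over control with its 95% interval for each gene shown, in lists ordered by role (diamonds, the 7 genes; red, genes called). Most of the synthesis enzymes shown lie left of 0, and the only called genes shown are Lpin1, Abca1 and Apoe, all to the right; the interval of Ch25h, a gene with few counts, runs past the axis.

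The fatty acid genes, most of them SREBP-1 targets, had 8 of 12 estimates below 0 with a median of -0.08 and none called. Their sum was 2822, 3071 and 2995 CPM in controls and 2579, 3005 and 2545 CPM in Rx-Dicer. The extremes were Acss2, acetyl-CoA synthetase, at -0.24 ± 0.16 (DESeq2 adjusted p = 0.59) and Me1, malic enzyme, at 0.27 ± 0.16 (adjusted p = 0.48). The genes that take isoprenoids to prenylated proteins, dolichol and ubiquinone had 7 of 10 estimates below 0, a median of -0.03 and none called. They ranged from -0.15 ± 0.11 for Dhdds (adjusted p = 0.66) to 0.14 ± 0.12 for Pggt1b (adjusted p = 0.75).

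Across libraries the 7 genes varied together. On the log2 scale and relative to each gene's own mean, their average was -0.22 in Rx-Dicer 1 and -0.08 in Rx-Dicer 3, against 0.12 in Rx-Dicer 2 and 0.01, 0.13 and 0.05 in controls 1 to 3. Thus the lowest and nearly the highest library both belonged to Rx-Dicer. Dicer1 moved with this profile (r = 0.91 over the 6 libraries, 0.95 without Rx-Dicer 1 and 0.88 with the genotype means removed). In these 3 settings 2.56%, 4.48% and 5.77% of genes with a mean of at least 100 normalised counts reached an r of 0.8. The part of Dicer1 loss in the profile was not tested. Pearson's r between members over the 6 libraries was above 0 in 21 of 21 pairs, with a median of 0.70, from 0.35 for Fdft1 and Insig1 to 0.95 for Hmgcs1 and Sqle. These points share 6 libraries and their composition, so r is a description. Much of it rested on Rx-Dicer 1, as without that library the median was 0.51 and 18 of 21 pairs were above 0. With the genotype means removed the median was 0.74.

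**Figure D3:**
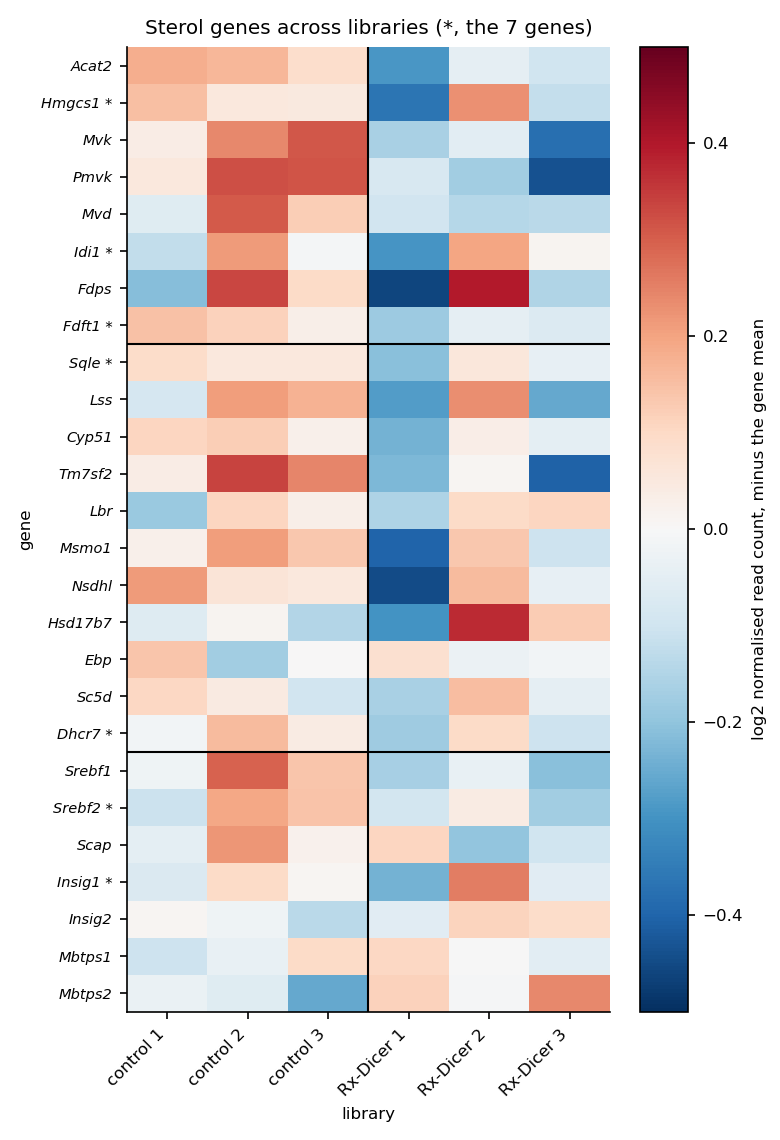
Log2 normalised read count minus the gene's mean over the 6 libraries (colour, from -0.5 to 0.5) for the enzymes up to squalene, the enzymes from squalene on, and the SREBP machinery (blocks from top to bottom; asterisks, the 7 genes). The Rx-Dicer 1 column is blue through most enzymes and the Rx-Dicer 2 column red in many of them, whereas Mbtps2 and Ebp do not follow.

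Because these genes varied together, the promoters of 3 of them are shown, as RefSeq gives them on GRCm38.p6 (250 bases before the start and 50 after, plus strand). Capitals mark the sterol regulatory element word TCACNCCAC and the NF-Y word CCAAT on either strand (ATTGG when read on the other). Windows were found for 5 of the 7 genes: Hmgcs1, Idi1, Srebf2, Insig1 and Dhcr7. The windows shown are chr13:119690101-119690400 for Hmgcs1, chr5:28071162-28071461 for Insig1 and chr13:8885356-8885655 for Idi1.
Hmgcs1: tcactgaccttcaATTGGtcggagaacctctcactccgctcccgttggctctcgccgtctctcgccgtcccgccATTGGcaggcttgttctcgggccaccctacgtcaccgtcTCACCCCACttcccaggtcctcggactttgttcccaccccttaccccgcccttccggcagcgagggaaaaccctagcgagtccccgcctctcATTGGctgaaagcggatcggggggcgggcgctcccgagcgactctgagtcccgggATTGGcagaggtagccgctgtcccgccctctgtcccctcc
Insig1: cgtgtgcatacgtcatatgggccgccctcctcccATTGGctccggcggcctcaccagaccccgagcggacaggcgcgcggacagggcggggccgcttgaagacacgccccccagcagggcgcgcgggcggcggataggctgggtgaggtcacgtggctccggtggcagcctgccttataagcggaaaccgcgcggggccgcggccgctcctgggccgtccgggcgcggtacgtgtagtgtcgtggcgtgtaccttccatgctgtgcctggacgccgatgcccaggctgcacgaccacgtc
Idi1: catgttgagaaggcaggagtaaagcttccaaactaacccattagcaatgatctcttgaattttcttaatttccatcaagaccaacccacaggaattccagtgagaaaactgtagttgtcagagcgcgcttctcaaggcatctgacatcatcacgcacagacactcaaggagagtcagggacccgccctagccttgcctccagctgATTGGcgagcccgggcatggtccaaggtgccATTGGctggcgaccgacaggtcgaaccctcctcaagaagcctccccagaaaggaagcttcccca

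The sterol word stood in the Hmgcs1 window, beginning at position -137 relative to the start, and in no other member's window. Of the 27025 mouse genes with a promoter window, 1.44% held it in any of theirs. CCAAT was found in a window of all 5 members and of 41.1% of all genes, 4 times in Hmgcs1, and at position -45 in both Hmgcs1 and Idi1. The GC box word GGGCGG, which Sp1 binds, was also in a window of all 5 members and of 38.2% of all genes. Of 13 other synthesis enzymes with a window, 12 held CCAAT, 12 held GGGCGG and 0 held the sterol word. No binding was measured here, and sterol elements that differ from this word by a base were not searched.

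Some other sterol genes followed the same profile over the 6 libraries, and most did not. With r taken to the mean profile of the 7 genes (a member being compared with the other 6), 6 of the 16 enzymes that are not members reached 0.8, against 2.56% of the 12896 genes with a mean of at least 100 normalised counts. Without Rx-Dicer 1 the counts were 4 of 16 and 4.48%. Of all 64 listed genes that are not members and had enough counts, 12 reached 0.8, and their median r was 0.18. Among the members r ran from 0.60 for Srebf2 to 0.96 for Dhcr7, with a median of 0.85, and 5 of 7 reached 0.8. Without Rx-Dicer 1 the median was 0.57, 1 of 7 reached 0.8, and Fdft1 stood at 0.13. Lss reached 0.92. Msmo1, at 0.98, and Fads1, a fatty acid desaturase at 0.96, are named after their values were seen. Scap, at -0.12, and Mbtps2, at -0.58, did not share the pattern. Outside the lists the 5 genes most like the profile were Neil2 (r = 0.99), Nek4 (0.98), Cep83os (0.98), Gucy1a1 (0.98) and Gm14342 (0.98). Neil2, a DNA repair gene with 87.5 to 113 normalised counts, is the upstream neighbour of Fdft1 on the same strand (chr14:63182443-63193856).

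The macrophage markers ran the opposite way. The 4 of 6 with enough counts had a median r of -0.93 to the profile over the 6 libraries and -0.80 without Rx-Dicer 1. Summed, all 6 markers were at 1144, 1001 and 1150 normalised counts in controls and 3748, 1125 and 2346 in Rx-Dicer. They were thus highest in Rx-Dicer 1, where the sterol genes were lowest, and at the control level in Rx-Dicer 2. The largest of the 6 in Rx-Dicer 1 was C1qb, at 1041 normalised counts. DESeq2 called 2 of the 6 higher, and no marker was at 0 in any library. Endothelial markers had a median r of 0.21, and 0.82 without Rx-Dicer 1. The part of other cell types in the sterol profile was not tested.

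**Figure D4:**
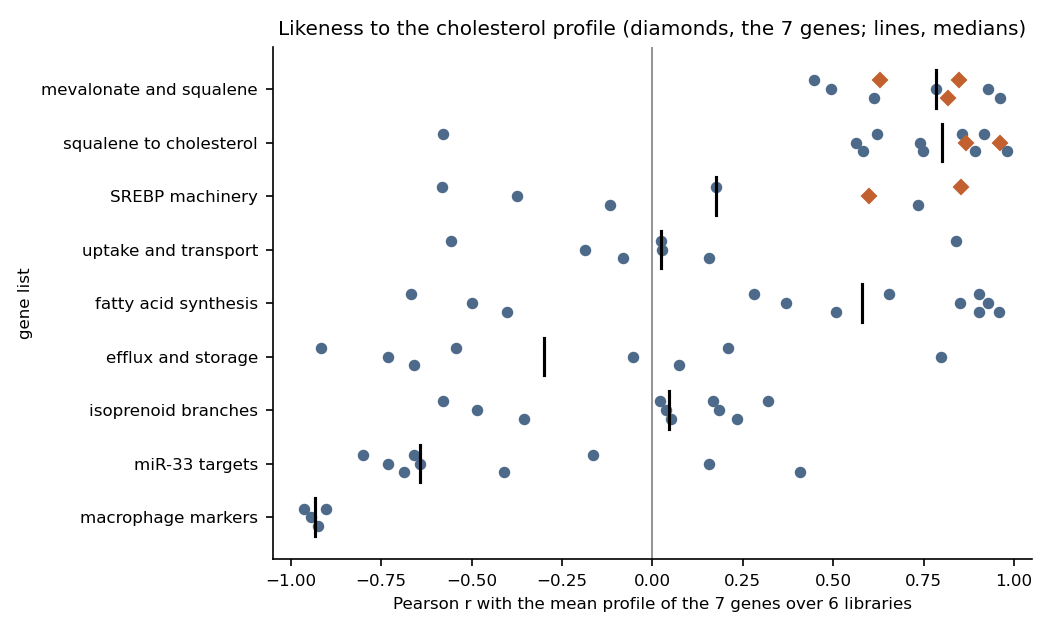
Pearson's r of each gene with the mean log2 profile of the 7 genes over 6 libraries, by list, for genes with a mean of at least 100 normalised counts (points, genes; diamonds, the 7 genes; lines, list medians). The synthesis enzymes gather at the right with medians near 0.8 and the macrophage markers lie at the far left, near -0.93.

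Among genes of cholesterol export and transport, Abca1 and Apoe were called higher. Of the 73 sterol, SREBP, lipid and miR-33 target genes listed, DESeq2 called 5, all higher in Rx-Dicer: Abca1, Apoe, Lpin1, Crot and Irs2. Of all genes tested, 1.75% were called higher and 1.18% lower. The lists were chosen with earlier results of these data known, so the comparison of these shares is not an independent test. edgeR called none of these 5. Without control 2 the count fell to 2 genes, and without control 3 or Rx-Dicer 3 to 3 genes. Without Rx-Dicer 2 it was 8 genes, of which Mvk, Tm7sf2 and the fatty acid desaturase gene Scd2 were called lower. Without Rx-Dicer 1 it was again 5, but different genes: Abca1, Irs2, Soat1 and Prkaa1 higher and Pmvk lower.

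Abca1, which moves cholesterol out of the cell onto lipoproteins, had 723, 611 and 583 normalised counts in controls and 1426, 1081 and 904 in Rx-Dicer. Every Rx-Dicer library was above every control, and Rx-Dicer 1 was the highest. The log2 change was 0.83 ± 0.19 (adjusted p = 0.0015 by DESeq2, 0.16 by edgeR). It kept its DESeq2 call in each fit that left out a library, with log2 changes of 0.63 to 0.97. Apoe, the brain's main lipid carrier and also abundant in macrophages, had 2357, 2388 and 2968 normalised counts in controls and 6683, 2778 and 4117 in Rx-Dicer. Rx-Dicer 2 lay within the control range. The log2 change was 0.82 ± 0.25 (adjusted p = 0.039 by DESeq2, 0.28 by edgeR), and without Rx-Dicer 1 it was 0.42 (adjusted p = 0.29). Within Rx-Dicer, Apoe and the summed macrophage markers had the same order of libraries. Its r to the sterol profile was -0.92, and -0.72 without Rx-Dicer 1. The part of macrophages in the Apoe difference was not tested. Apoe lost its DESeq2 call in every fit without 1 library, at adjusted p from 0.14 to 0.73, except the one without Rx-Dicer 2.

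Lpin1, a phosphatidate phosphatase and SREBP target, had 316, 250 and 301 normalised counts in controls and 492, 468 and 377 in Rx-Dicer (log2 change 0.63 ± 0.19, adjusted p = 0.036 by DESeq2, 0.21 by edgeR). Its groups did not overlap, but the call was lost without control 2 (adjusted p = 0.23), control 3 (0.097), Rx-Dicer 1 (0.13) or Rx-Dicer 2 (0.11). In the export and storage list the lowest estimate among genes with enough counts was that of Cyp46a1, which makes a cholesterol metabolite that leaves neurons, at -0.36 ± 0.18 (DESeq2 adjusted p = 0.39).

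**Figure D5:**
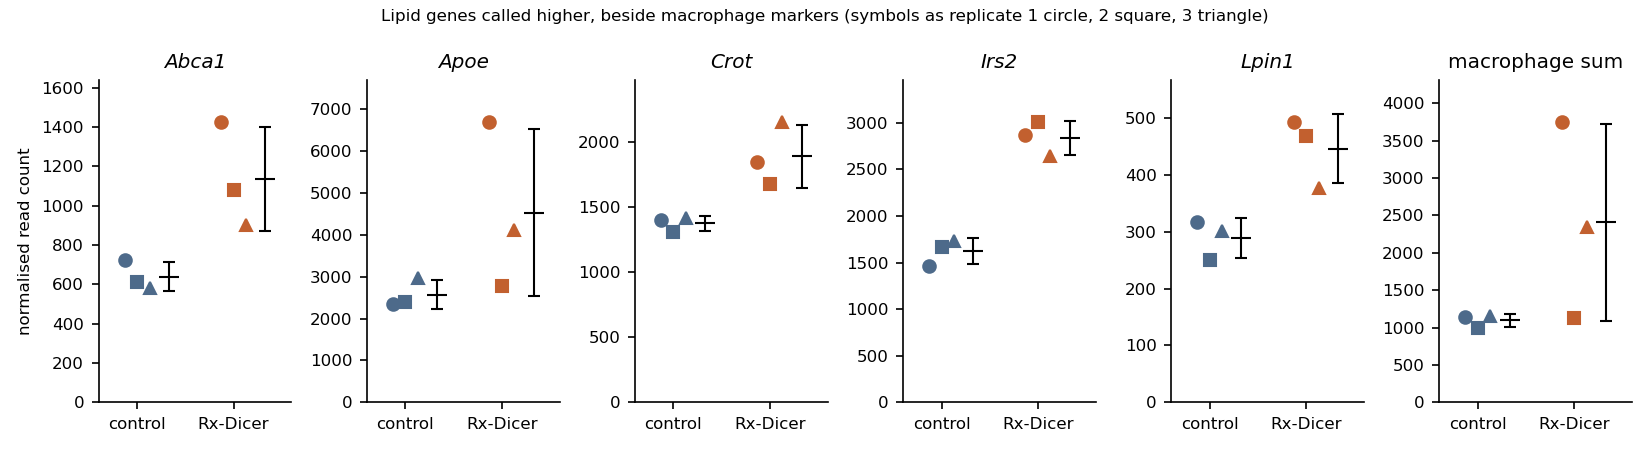
Normalised read count (linear axes from 0) of the 5 lipid and miR-33 list genes called higher, and the sum of 6 macrophage markers, in the 3 control (blue) and 3 Rx-Dicer (orange) libraries with the mean and 1 SD. Apoe and the macrophage sum share the order Rx-Dicer 1, 3, 2, while Irs2 stands near 2643 to 3009 in all 3 Rx-Dicer libraries.

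Finally, the targets of miR-33 were considered, as Srebf2 hosts this miRNA and Dicer is needed to make it. The mature strand is shown with its seed, bases 2 to 8, in capitals (RefSeq, GRCm38.p6, chr15:82198127-82198147, plus strand). Below it stand the matching CAATGCA words, in capitals, of Abca1 (chr4:53033783-53033812, minus strand) and Crot (chr5:8966676-8966702, minus strand), both in the 3′ UTR, since these called genes carry the site. Irs2, also called, holds the word in its 3′ UTR too and is not shown.
mmu-miR-33-5p: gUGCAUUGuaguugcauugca
Abca1: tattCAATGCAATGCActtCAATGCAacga
Crot: gttgcaaccaCAATGCAaagtcagata

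The Mir33 row held 0 counts in all 6 libraries, and a library of long RNA does not measure the mature miRNA, so no level of miR-33 is available from these counts. In the paper's small RNA sequencing at the same age, few mature miRNAs were significantly reduced, most of them let-7 members. Its text does not say whether miR-33 was among them, so a loss of miR-33 is not shown here. Of 9 genes listed as miR-33 targets, 8 held the word in the longest annotated 3′ UTR, 3 times in Abca1, against 7.96% of 14060 genes. The genes were listed because they are known targets, so this share follows from the choice and is not a result. DESeq2 called 3 of the 9 higher, Abca1, Crot and Irs2, and none lower, and 8 of 9 had an estimate above 0, with a median of 0.36. In 5 of the 9 all Rx-Dicer values were above all control values. Of all genes tested, 1.75% were called higher and 8.55% had Rx-Dicer values wholly above the controls. This list, which includes Irs2, was also chosen with earlier results of these data known, so its counts are a description and not an independent test. Crot, a peroxisomal enzyme of fatty acid oxidation, had 1400, 1310 and 1418 normalised counts in controls and 1846, 1675 and 2152 in Rx-Dicer (log2 change 0.46 ± 0.14, adjusted p = 0.037 by DESeq2, 0.18 by edgeR). It lost its call in 5 of the 6 fits without 1 library, at adjusted p from 0.053 to 0.21, and kept it without Rx-Dicer 2.

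Irs2, an adaptor of the insulin receptor that also carries a let-7 site, had 1463, 1673 and 1733 normalised counts in controls and 2865, 3009 and 2643 in Rx-Dicer. Both groups lay far apart (log2 change 0.81 ± 0.13, adjusted p = 1.4e-07 by DESeq2, 0.052 by edgeR). Sirt6 was the lowest of the list at -0.10 ± 0.13 (DESeq2 adjusted p = 0.87). Over all 1119 genes whose 3′ UTR holds the word, the median log2 change was 0.07 and 3.84% were called higher, against 0.00 and 1.92% of genes without it. Their UTRs were also longer, with a median of 2761 bases against 1123, and the part of length and of other miRNA sites was not tested.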

How the data were processed

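RNA of 6 samples was sequenced as paired reads of 100 bases. Per the labels and the submitters' processing notes, the authors trimmed reads with Trim Galore 0.6.5, aligned them to GRCm38.p6 with HISAT2 and counted them per gene with HTSeq 0.12.4. The deposited values are raw counts, with 2 files per sample, which were summed after the runs were checked to differ far less than samples did. DESeq2 1.42.0 in R 4.3.3 was fitted to all genes with genotype alone (Wald test, p-values adjusted by Benjamini-Hochberg over all genes tested), and edgeR 4.0.16 (quasi-likelihood) was given beside it. Normalised counts are counts divided by DESeq2's size factors. Correlations used log2 of the normalised count plus 0.5. The code was tested on simulated data. Genes named were the members, pathway nodes, every gene called, list extremes with a mean of at least 100 normalised counts, and the 5 genes most like the members' profile. The members and lists were chosen with earlier results of these data known. Promoter words came from general knowledge. Names, positions and exon lengths came from GENCODE M21, which held 55144 of 55471 identifiers. Some listed genes are not reported here by name.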

Additional observations from a re-analysis of the deposited data

How the results depend on the processing

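No member was called under any alternative. The number of pathway genes called (5) became 0 with edgeR, 2 with no independent filtering, 3 with the first run alone, 3 with the second run alone, 3 with GC and length correction and 8 at an adjusted p below 0.1, and ranged from 2 to 8 when 1 library was left out. Over all genes, 502 calls became 8 with edgeR and 322 with no independent filtering, and ranged from 286 to 637 when 1 library was left out. With the replicate block, 2 pathway genes and 314 genes in all were called, with edgeR and the replicate block 0 and 20, and with the replicate block and GC and length correction 3 and 296. Same-numbered libraries correlated at 0.27, -0.06 and -0.29 after removal of group means, so the numbers were not taken to pair the samples. Signs turned for Idi1, which ranged from -0.16 to 0.074 when 1 library was left out (above 0 without control 2 or Rx-Dicer 1), for Insig1, which ranged from -0.15 to 0.094 (above 0 without control 2, Rx-Dicer 1 or Rx-Dicer 3) and was 0.011 with total count scaling, and for Hsd17b7, which ranged from -0.003 without Rx-Dicer 2 to 0.32 without Rx-Dicer 1. Pggt1b was at -0.044 with GC and length correction and -0.044 with that and the replicate block, and Neil2 at 0.004 with the first run alone. Over the alternatives Hmgcs1 ranged from -0.32 to -0.02, Sqle from -0.19 to -0.06, Srebf2 from -0.24 to -0.10 and Dhcr7 from -0.20 to -0.07. The cause was not tested. With 36 genes and 18 alternatives, 593 of 648 gene values kept their direction and side of the threshold. With 3 libraries a group, differences within the intervals given cannot be resolved.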
